A study of Rattus norvegicus with 32 samples.

Results

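The protein phosphatase genes described here are the 66 genes, of 5022 with a single symbol on a rat array, whose symbol begins with Ptpn, Ptpr, Ptp4, Ppp1 to Ppp6, Ppm1 or Dusp, leaving out Ptprc, which marks leukocytes. They were chosen by name and by no measured value. Each was represented by 1 probe printed as 2 spots, and the mean of the spots was used. RNA from the lungs of male Sprague-Dawley rats was compared on 2-colour spotted arrays with a pool of RNA from organs of untreated rats, lung included. Lungs were taken 1, 3, 6, 16, 24, 48 and 72 h after withdrawal of 40% of the estimated blood volume through an arterial catheter, on 3, 3, 5, 2, 3, 3 and 3 of the arrays used. The sham group of 5 arrays came from rats that carried the same catheters and telemetry but were not bled. The control group of 3 arrays came from rats without instruments, so bled and sham rats shared the surgery and control rats did not. All rats weighed 280 to 300 g. A recovery of 7 to 10 days is given for the sham and bled rats, and none for the control rats. The labels do not say when the sham lungs were collected, nor that the numbered samples of a group are separate animals beyond speaking of each rat lung, so p-values measure the spread between these samples.

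Protein phosphatases remove the phosphate that kinases add, and so end or reset signals. The tyrosine phosphatases fall into receptor types that span the membrane (Ptpr) and non-receptor types (Ptpn), and dual-specificity phosphatases (Dusp) include those that switch off MAP kinases. Most serine and threonine dephosphorylation is done by a few catalytic subunits (PP1, PP2A, calcineurin and their relatives), which are steered by many regulatory subunits, while the PPM enzymes act as single chains. In the lung these enzymes act, among other places, on the barrier of endothelium and epithelium, on smooth muscle tone and in leukocytes.

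The values are log2 ratios of lung over the organ pool, centred on each array's median, so 0 is the level of the middle spot and a ratio compares 1 gene with its own level in the pool. They do not rank 1 gene's amount of RNA against another's. Which dye marked the lung is not given in the sources used here, and the direction was read from lung genes: Sftpc, a surfactant protein of alveolar type II cells, averaged 2.98 and Scgb1a1, the secretoglobin of club cells, 2.50 over the 30 arrays. Of 13056 spots on an array 12151 to 12895 carried a value, and no intensities were used here, so whether a spot was bright is unknown. Sham replicate 2 and 16 h replicate 3 were left out, because the median of 10 liver genes was 3.14 and 3.32 on them, against -2.13 to 0.42 on the 30 arrays used. Of the 30, the 3 h replicate 2 array was least like the others, with a median correlation of 0.303 over all features. In whole lung, fewer cells of a type and less RNA per cell cannot be told apart.

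Seen over the 30 arrays, 22 of them from bled lungs, the phosphatase genes as a group lay at the middle of the array. Their mean ratios ran from -1.59 to 1.28 with a median of 0.01, and 33 of 66 lay above 0, beside a median of -0.04 and 47.8% above 0 for all 6223 features. The median SD of a phosphatase gene over the arrays was 0.505, beside 0.510 for all features. The extremes were set by single genes rather than by families, and every family held genes on both sides of 0 (the plot of levels by family).

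**Figure D1:**
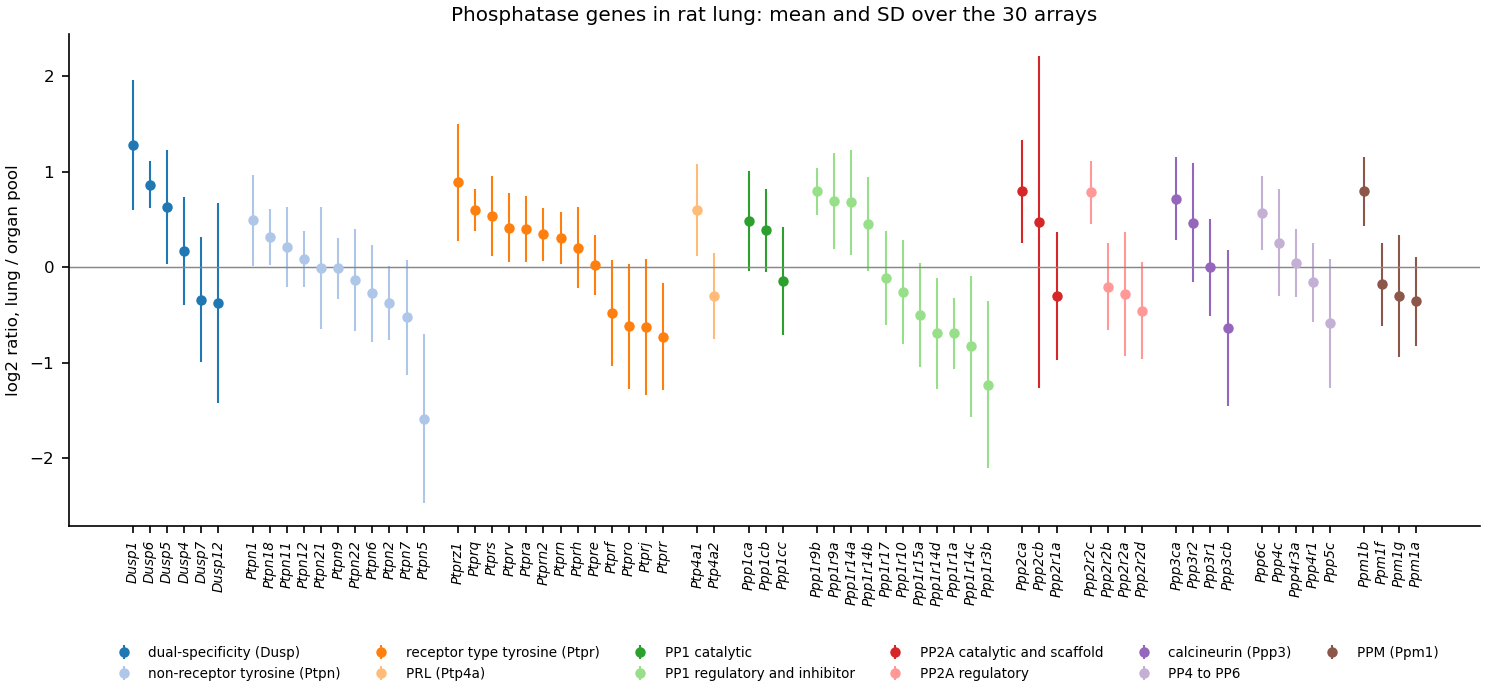
Mean log2 ratio of lung over the organ pool (y axis) for each of the 66 genes (x axis, grouped and coloured by family, ordered by level within a family). Points are means and bars SDs over the 30 arrays (29 for Ptpro, 27 for Ppp2cb); Dusp1 stands highest at 1.28 and Ptpn5 lowest at -1.59.

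Among the 6 dual-specificity phosphatases, Dusp1, the nuclear enzyme that inactivates p38 and JNK, had the highest mean of all 66 genes, 1.28 ± 0.68 (SD, n = 30). It lay above 0 on 28 of 30 arrays. Dusp6, the cytoplasmic phosphatase of ERK, averaged 0.86 ± 0.25 and was above 0 on 30 of 30 arrays, with a lowest value of 0.23. Its spread was well under that of Dusp1, and no comparison called it. Dusp5, a nuclear ERK phosphatase, averaged 0.63 ± 0.59 and Dusp4, another nuclear MAP kinase phosphatase, 0.17 ± 0.57. Dusp7 and the atypical member Dusp12 averaged -0.34 ± 0.65 and -0.38 ± 1.04, and the spread of Dusp12 came in part from a value of -4.45 on the 1 h replicate 2 array. Of the spot values of Dusp12, 1 was a deposited ratio of 0.05 or less.

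Of the 13 receptor type phosphatases 9 had a mean above 0. Ptprz1, a receptor best known from glia, led them at 0.89 ± 0.61 and was above 0 on 26 of 30 arrays. Ptprq averaged 0.60 ± 0.22 and lay above 0 on 30 of 30. Ptprr, a neuronal phosphatase of ERK, was lowest at -0.73 ± 0.56, next to Ptprj at -0.63 ± 0.72 and Ptpro, known from kidney podocytes, at -0.62 ± 0.65. Ptprn and Ptprn2, catalytically inactive proteins of secretory vesicles, averaged 0.30 ± 0.27 and 0.34 ± 0.28.

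Only 4 of the 11 non-receptor tyrosine phosphatases had a mean above 0. Ptpn1 (PTP1B), which dephosphorylates the insulin receptor, was highest at 0.49 ± 0.48, and Ptpn11 (SHP-2), which relays growth factor signals, averaged 0.21 ± 0.42. Ptpn5, the striatum-enriched phosphatase of brain, was the lowest of all 66 genes at -1.59 ± 0.89 and below 0 on every one of the 30 arrays. Its 2 spots differed by a median of 0.58 log2 units, and 2 of its spot values were deposited ratios of 0.05 or less. Ptpn6 (SHP-1) and Ptpn7, both found mainly in blood cells, averaged -0.27 ± 0.51 and -0.52 ± 0.60. The PRL phosphatases differed, with Ptp4a1 at 0.60 ± 0.48 and Ptp4a2 at -0.30 ± 0.45.

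The genes known from brain that are named here did not lie on 1 side of 0. Ptpn5 and Ptprr were low, while Ptprz1, the B55 subunit Ppp2r2c (0.79 ± 0.33, above 0 on 30 of 30 arrays) and the PP1 anchors Ppp1r9a (neurabin, 0.69 ± 0.50) and Ppp1r9b (spinophilin, 0.79 ± 0.24, above 0 on 30 of 30) were high. No fixed list of brain phosphatases was used, and other regulators left out of this comparison lay below 0. Ppp2r2b averaged -0.20 ± 0.45, Ppp1r1a -0.69 ± 0.37 and Ppp1r17 -0.11 ± 0.49. The 6 measured of 7 brain marker genes had array medians of -0.82 to 0.16 over the groups used. That list was mixed, with gene means from -1.27 for Mbp to 1.46 for Gfap over the 30 arrays.

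Among catalytic subunits of serine and threonine phosphatases, PP1 was represented by Ppp1ca at 0.48 ± 0.52, Ppp1cb at 0.39 ± 0.43 and Ppp1cc at -0.14 ± 0.57. The PP2A catalytic gene Ppp2ca averaged 0.79 ± 0.54. Its near twin Ppp2cb could not be measured well, with values of -2.38 to 3.82 on 27 arrays and spots that differed by a median of 2.14 log2 units, and it had a single value at 24 h, so it was not tested. The other 65 genes passed the requirement of a value on at least 2 arrays in every group.

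The calcineurin subunits, which answer calcium, split. Ppp3ca, the alpha catalytic chain, averaged 0.72 ± 0.44 and Ppp3cb, the beta catalytic chain, -0.63 ± 0.82. The regulatory chains Ppp3r1 and Ppp3r2 averaged -0.00 ± 0.51 and 0.47 ± 0.62. Ppp6c, the PP6 catalytic subunit, averaged 0.57 ± 0.39 and Ppp5c, which works with the chaperone HSP90, -0.59 ± 0.67.

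The regulators of PP1 spanned most of the range. Ppp1r14a (CPI-17), the inhibitor of myosin phosphatase in smooth muscle, averaged 0.68 ± 0.55, and its relatives Ppp1r14c and Ppp1r14d -0.83 ± 0.74 and -0.69 ± 0.58. Ppp1r3b, which ties PP1 to glycogen in liver, was lowest of the regulators at -1.23 ± 0.87. Ppp1r15a (GADD34), which reverses the eIF2alpha phosphorylation of the stress response, averaged -0.50 ± 0.55. Among the PPM enzymes Ppm1b stood at 0.79 ± 0.36, above 0 on 30 of 30 arrays, whereas Ppm1a, Ppm1f and Ppm1g averaged -0.36 to -0.18.

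Against sham, 6 changes of phosphatase genes were called, all at 24 h or 72 h. The fit was limma over 5993 features, and a call is a Benjamini-Hochberg adjusted p under 0.05 over all of them. At 1, 3, 6, 16 and 48 h limma called 0 of the 65 genes, beside 0%, 2.8%, 0%, 0.0667% and 1.17% of all features. At those times 7, 10, 9, 9 and 5 of the 65 had an unadjusted p under 0.05, against 645, 1343, 1119, 837 and 973 of the 5993. At 24 h 3 of 65 were called, beside 3.55% of all features, and at 72 h 3 of 65, beside 5.91%. Read against those shares, the counts of phosphatase genes were near the background. Their median log2 change was -0.05 at 24 h and -0.08 at 72 h, beside 0.04 and 0.02 for all features. All 7 comparisons share the sham arrays (the map of changes by time).

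**Figure D2:**
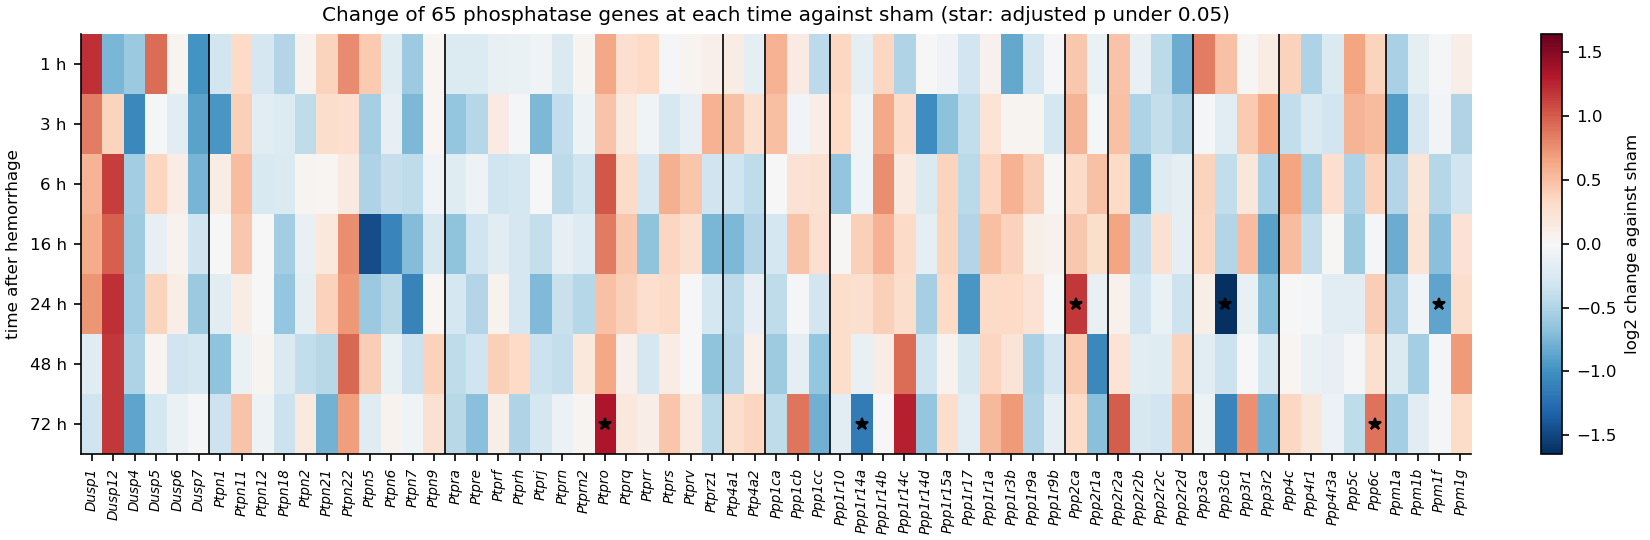
Log2 change against sham at each time (rows, early at the top) for the 65 tested genes (columns, grouped by family between black lines). Red is higher and blue lower in bled lungs, and stars mark the 6 changes with an adjusted p under 0.05, of which 3 are at 24 h and 3 at 72 h.

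At 24 h the PP2A catalytic gene rose while a PPM phosphatase and a calcineurin subunit fell, so 1 gene was higher (0.851% of all features were) and 2 were lower (2.7% of all features). Ppp2ca had 2.31, 0.90 and 1.64 at 24 h, against -0.22, 0.40, 1.01, 0.25 and 0.86 in sham lungs. The groups overlapped, since the lowest 24 h array lay under the highest sham array. Its log2 change was 1.16 ± 0.31 (SE, adjusted p = 0.0410). At the other 6 times its means of 0.77 to 1.02 were also above the sham mean of 0.46, without a call.

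Ppm1f (POPX2), a phosphatase of CaM kinase II and of p21-activated kinases, had -1.01, -1.07 and -0.51 at 24 h, against 0.40, -0.27, -0.08, 0.10 and -0.10 in sham lungs. All 24 h arrays lay below all sham arrays, and the change was -0.87 ± 0.23 (adjusted p = 0.0394). Its mean was -0.46 at 6 h and -0.68 at 16 h, and it was -0.02 at 48 h and -0.01 at 72 h.

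Ppp3cb had -1.08, -1.57 and -3.13 at 24 h, against -0.41, 0.16, 0.03, -0.35 and -0.83 in sham lungs. Again the groups did not overlap, and the change was -1.64 ± 0.45 (adjusted p = 0.0415), to which replicate 3 gave most. The alpha chain Ppp3ca was not called at 24 h, where it had 1.04, 0.33 and 0.68, against 0.85, 0.67, 0.16, 0.46 and 0.78 in sham lungs.

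These 3 calls rested on single arrays. The Ppm1f call was lost when any 24 h array or sham replicate 1, 5 or 6 was left out (changes of -1.04 to -0.77, adjusted p 0.0590 to 0.102), the Ppp2ca call without 24 h replicate 1 or 3 or sham replicate 1, 3 or 5 (0.81 to 1.15, adjusted p 0.0779 to 0.183), and the Ppp3cb call without 24 h replicate 3 or sham replicate 1, 3, 4 or 5 (-1.68 to -1.04, adjusted p 0.0537 to 0.314). With the 2 left-out arrays included Ppm1f changed by -0.57 (adjusted p = 0.354) and was no longer called. Without centring, which moved the median change of all features at 24 h to -0.15, Ppp2ca changed by 0.98 (adjusted p = 0.0567) and 6 genes were called, all lower, with 30 features higher and 389 lower in all, against 51 higher and 162 lower with centring. With quantile normalization Ppp2ca changed by 0.89 (adjusted p = 0.0945). With array weights Ppm1f changed by -0.80 (adjusted p = 0.111) and Ppp3cb by -1.69 (adjusted p = 0.0798), and neither was called.

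At 72 h the PP6 catalytic gene and a receptor phosphatase rose and the smooth muscle inhibitor of PP1 fell (2 higher and 1 lower, beside 2.04% and 3.87% of all features). Ppp6c had 0.31, 1.63 and 1.46 at 72 h, against 0.35, -0.21, 0.78, 0.29 and -0.00 in sham lungs. Replicates 2 and 3 stood above every sham array and replicate 1 among them, and the change was 0.89 ± 0.25 (adjusted p = 0.0396).

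Ptpro, which had no value on the 1 h replicate 2 array, had -0.54, 0.55 and 0.41 at 72 h, against -0.77, -2.03, -0.55, -1.58 and -1.01 in sham lungs. The 72 h arrays lay above all sham arrays, by little for replicate 1. The change was 1.33 ± 0.38 (adjusted p = 0.0420). Its mean was above the sham mean of -1.19 at each of the 7 times, from -0.72 at 3 h to 0.14 at 72 h, and control lungs, at -1.31 ± 0.94 (SD, n = 3), were as low as sham lungs.

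Ppp1r14a had -0.94, 0.16 and -0.32 at 72 h, against 0.38, 0.63, 0.72, 0.98 and 1.19 in sham lungs. The groups did not overlap, and the change was -1.15 ± 0.33 (adjusted p = 0.0402). The median of 4 measured of 5 smooth muscle marker genes was 0.18 to 0.46 on the 72 h arrays, against 0.10 to 0.60 on the sham arrays. At 72 h 2 of these 4 genes were higher than in sham lungs and the others lower, without a call. Their part in the Ppp1r14a change was not tested. At the 6 earlier times the mean of Ppp1r14a was 0.64 to 1.18, beside 0.78 in sham lungs.

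The Ppp6c call was lost without 72 h replicate 2 or 3 or sham replicate 1, 3, 5 or 6 (0.64 to 0.92, adjusted p 0.0537 to 0.271). The Ptpro call was lost without 72 h replicate 2 or 3, sham replicate 3, 5 or 6, 6 h replicate 2 or control replicate 2 (1.12 to 1.37, adjusted p 0.0501 to 0.215), and the Ppp1r14a call without any 72 h array or sham replicate 3, 4, 5 or 6 (-1.41 to -0.86, adjusted p 0.0536 to 0.155). With the 2 left-out arrays included, Ptpro changed by 1.93 (adjusted p = 0.0653) and Ppp1r14a by -1.01 (adjusted p = 0.0839).

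Cell markers moved at these times too. The median of 8 measured of 10 lung epithelium genes was 0.90 to 1.27 on the 72 h arrays, against 1.72 to 2.82 on the sham arrays. The median of 7 measured of 8 neutrophil and monocyte genes was 0.40 to 0.78 at 24 h and 0.12 to 0.70 at 72 h, against -0.62 to -0.00 in sham lungs. The median of 4 measured of 5 common leukocyte genes was -0.45 to 0.17 at 72 h, against 0.31 to 0.60 in sham lungs. That of 3 measured of 5 red cell genes was -0.03 to 0.37 at 72 h, against -1.06 to -0.29 in sham lungs. Both of these lists were mixed, since in each of them 1 gene was called higher and 1 lower at 72 h. So was the list of 5 measured of 11 endothelium genes, with 1 called higher and 1 lower at 72 h. Of the 7 neutrophil and monocyte genes 5 were higher at 72 h than in sham lungs, 1 of them called, with a median change of 0.22. The part of the cell markers in the changes of Ppp2ca, Ppm1f, Ppp3cb, Ppp6c, Ptpro and Ppp1r14a was not tested.

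**Figure D3:**
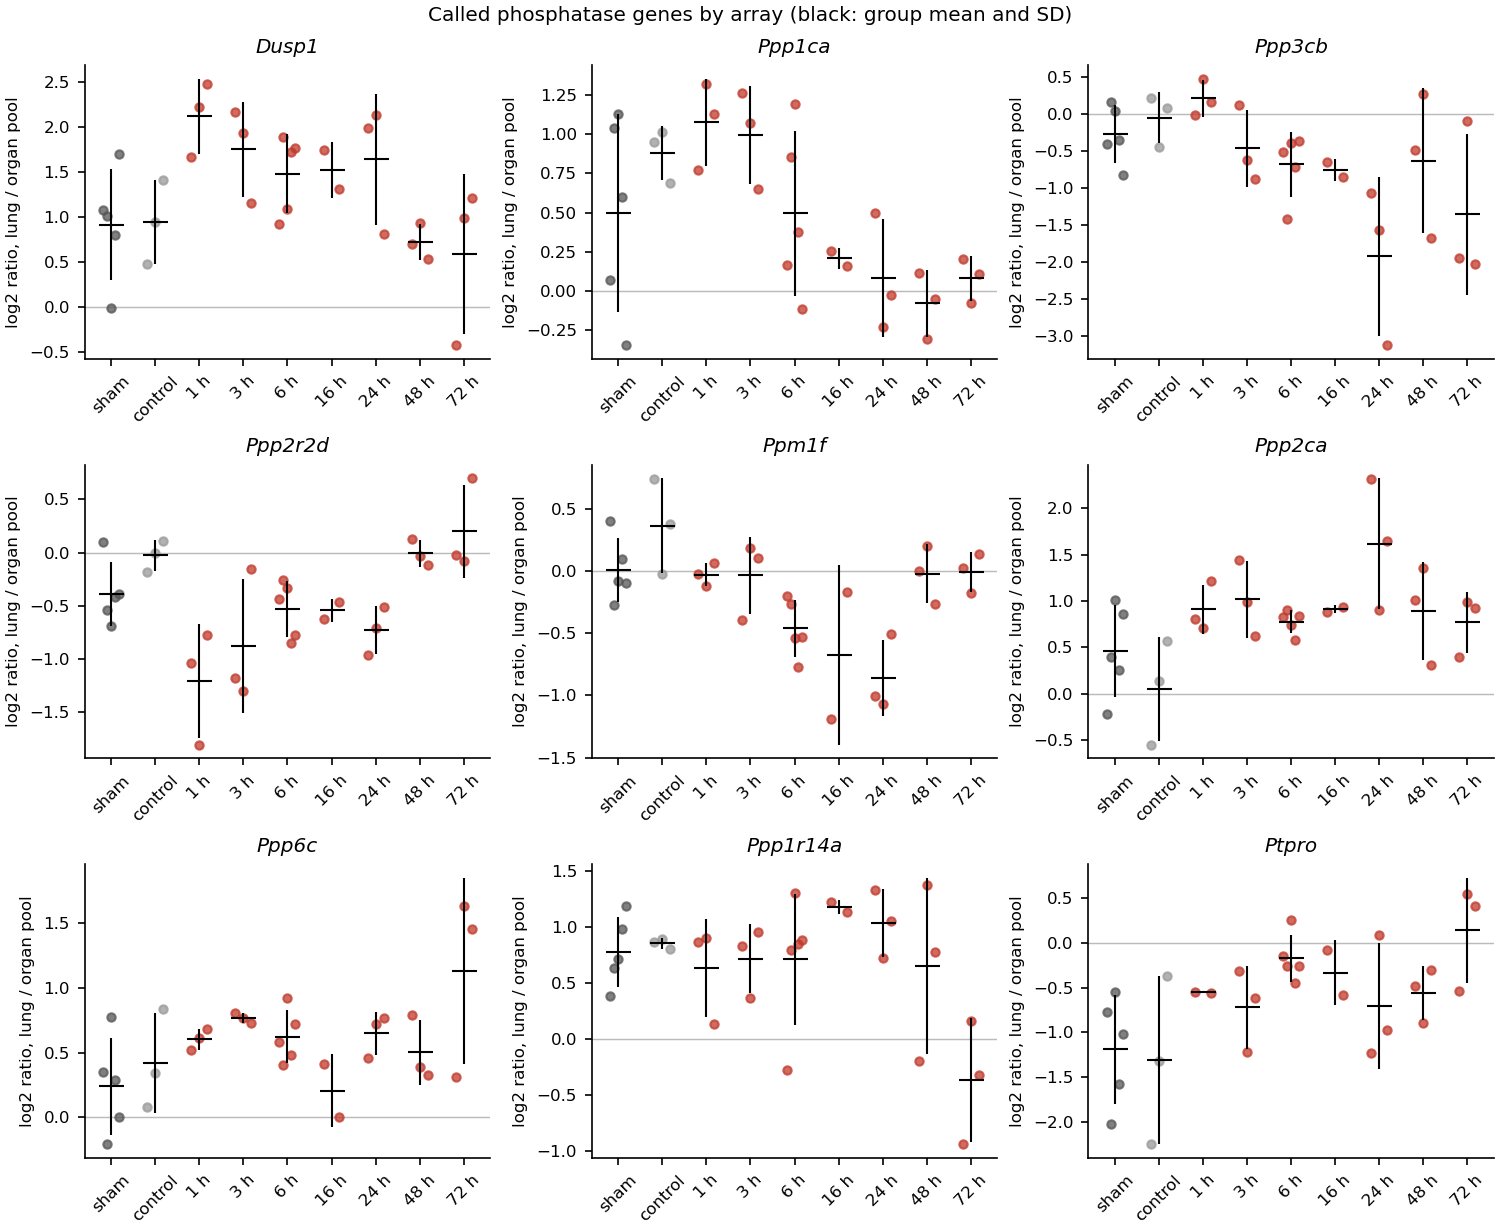
Log2 ratio of lung over the organ pool (y axis) on every array for the 9 genes called in any comparison, by group (x axis: sham and control lungs in grey, then the 7 times in red). Black lines are group means and SDs; Dusp1 and Ppp1ca run from high at 1 h to low at 48 and 72 h, and Ppp2r2d runs the other way.

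The genes with the smallest p where nothing was called are values only. At 1 h Dusp1 had 1.66, 2.22 and 2.48, against 1.08, 1.01, -0.01, 0.80 and 1.70 in sham lungs, a difference of 1.20 ± 0.39 (adjusted p = 0.292) in which the groups overlapped by 1 array of each. Ppp2r2d differed by -0.82 ± 0.26 and Ppp3ca by 0.84 ± 0.27 at 1 h, with the same adjusted p. At 3 h the 3 smallest p belonged to Ppm1a (-0.91 ± 0.27, adjusted p = 0.0619), Ptpn1 (-0.96 ± 0.30, 0.0687) and Dusp4 (-1.06 ± 0.37, 0.102). At 6 h they were Ppp2r2b at -0.83 ± 0.26, Ptpro at 1.02 ± 0.33 and the PP1 inhibitor Ppp1r14b at 0.76 ± 0.25 (adjusted p 0.118 to 0.131).

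At 16 h, with 2 arrays, they were Ptpn6 at -1.09 ± 0.38, Ptpra at -0.67 ± 0.25 and Ppm1a at -0.82 ± 0.31 (adjusted p 0.214 to 0.251). Ptpn6 had -1.90 and -0.43 there, against -0.13, -0.13, -0.04, 0.01 and -0.09 in sham lungs. The median of 4 measured of 5 common leukocyte genes was -0.53 and -0.05 on those 2 arrays, against 0.31 to 0.60 in sham lungs, and its part in the Ptpn6 value was not tested. At 48 h the smallest p belonged to the lymphoid phosphatase Ptpn22 (0.95 ± 0.34), the PP2A scaffold Ppp2r1a (-1.06 ± 0.39) and Ppm1b (-0.55 ± 0.24), with adjusted p of 0.162 to 0.258.

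Ppm1a, the PP2C that acts on stress kinases and SMADs, lay below its sham mean at each of the 7 times. The group mean was 0.03 ± 0.14 in sham lungs (SD, n = 5) and -0.50, -0.88, -0.45, -0.78, -0.49, -0.21 and -0.53 at the 7 times in order. Over the mean of the 7 times it differed from sham by -0.58 ± 0.19 (adjusted p = 0.0773). Ptpro differed by 0.78 ± 0.26 (adjusted p = 0.0924) and Ptpn18, a cytoplasmic phosphatase of receptor tyrosine kinases, by -0.39 ± 0.14 (0.109). So 0 of 65 genes were called by limma in the mean of the 7 times, beside 3.42% of all features, while 13 of 65 and 1378 of 5993 had an unadjusted p under 0.05. With the 2 left-out arrays included, the Ptpro difference was 1.35 (adjusted p = 0.0494).

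Between the early lungs (1, 3 and 6 h, 11 arrays) and the late ones (24, 48 and 72 h, 9 arrays) 4 of 65 genes differed, 3 higher and 1 lower in early lungs, beside 7.04% of all features (4.37% higher and 2.67% lower). The 4 belong to different machines: a PP1 catalytic subunit, a calcineurin catalytic subunit, a MAP kinase phosphatase and a regulatory subunit of PP2A. The median difference of the 65 was 0.01, beside 0.00 for all features. This comparison uses no sham array in its means (the plot of early against late differences). Cell markers differed as well: 8 of 8 measured lung epithelium genes were higher in early lungs, 2 of them called, with a median difference of 0.59. Of 3 measured red cell genes 2 were called lower in early lungs and 1 was higher, with a median difference of -0.72. In early lungs 1 of 4 common leukocyte genes and 1 of 6 brain genes were called higher. Called lower were 1 of 7 neutrophil and monocyte genes and 1 of 6 T, NK and B cell genes. The part of the cell markers in the differences of the 4 phosphatase genes was not tested.

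**Figure D4:**
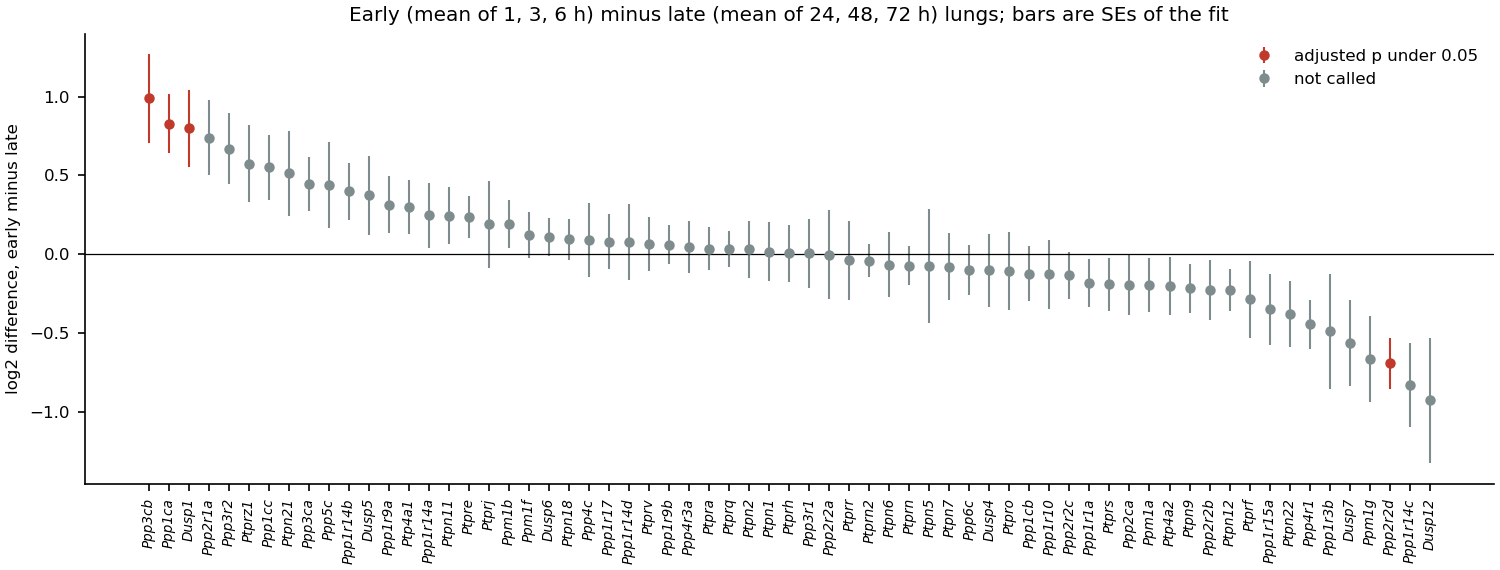
Difference of the early mean minus the late mean on the log2 scale (y axis) for each of the 65 genes (x axis, sorted), with SEs of the fit as bars. The 4 genes in red have an adjusted p under 0.05: Ppp3cb, Ppp1ca and Dusp1 above 0 and Ppp2r2d below.

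Ppp1ca, the alpha catalytic subunit of PP1, had 0.77, 1.32 and 1.13 at 1 h, 1.26, 1.08 and 0.65 at 3 h and 0.17, 0.86, 1.19, 0.37 and -0.11 at 6 h, against 0.50, -0.23 and -0.02 at 24 h, 0.12, -0.30 and -0.05 at 48 h and 0.21, -0.08 and 0.11 at 72 h. All arrays of 1 and 3 h lay above all late arrays, and the 6 h arrays ran through both ranges. The early mean was 0.86 and the late mean 0.03, a difference of 0.83 ± 0.19 (SE, adjusted p = 0.0108). Sham lungs were mixed, at 0.07, 1.04, 1.13, 0.60 and -0.35, and control lungs were at 0.95, 1.01 and 0.69, in the range of the 1 and 3 h lungs. The call was kept without each of the 30 arrays in turn. The other PP1 catalytic genes were not called: Ppp1cb differed by -0.13 and Ppp1cc by 0.55 (adjusted p 0.697 and 0.103).

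Ppp2r2d, a B55 subunit that directs PP2A to its substrates, ran the other way. It had -1.04, -1.81 and -0.77 at 1 h, -1.18, -1.30 and -0.16 at 3 h and -0.44, -0.26, -0.34, -0.85 and -0.77 at 6 h, against -0.96, -0.71 and -0.51 at 24 h, 0.13, -0.03 and -0.12 at 48 h and -0.02, -0.08 and 0.70 at 72 h. The 48 and 72 h arrays lay above every earlier bled array. Sham lungs were at 0.10, -0.54, -0.69, -0.42 and -0.39, a range that also held arrays of every time but 1 h. Control lungs were at -0.18, -0.01 and 0.11. Against sham, limma gave -0.34 ± 0.26 (SE) at 24 h (adjusted p = 0.509) and 0.59 ± 0.26 at 72 h (adjusted p = 0.187), neither called. The difference of early from late lungs was -0.69 ± 0.16 (adjusted p = 0.0134), kept without each of the 30 arrays. Its adjusted p was 0.0602 when the 2 left-out arrays were included. Ppp2r2d was also the 1 gene of 65 called by the F test over the 7 times (adjusted p = 0.0397), beside 5.69% of all features, a call that was lost (adjusted p 0.0501 to 0.0947) without 1 h replicate 2, 3 h replicate 1, 6 h replicate 2 or 3, 16 h replicate 1, 48 h replicate 1, 72 h replicate 2 or 3, sham replicate 3, 5 or 6 or control replicate 2.

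Dusp1 had, beside the 1 h values above, 2.17, 1.93 and 1.16 at 3 h and 0.93, 1.89, 1.09, 1.73 and 1.77 at 6 h, against 1.98, 2.13 and 0.81 at 24 h, 0.70, 0.93 and 0.53 at 48 h and -0.43, 0.98 and 1.22 at 72 h. The early range of 0.93 to 2.48 also held 24 h replicates 1 and 2, 48 h replicate 2 and 72 h replicates 2 and 3. The 48 h arrays lay in the sham range of -0.01 to 1.70, which also held arrays of 1, 3 and 6 h. The difference was 0.80 ± 0.24 (adjusted p = 0.0454). The call was lost (0.63 to 0.80, adjusted p 0.0517 to 0.109) without 1 h replicate 2 or 3, 3 h replicate 1 or 2, 6 h replicate 2, 4 or 5, 16 h replicate 1 or 2, 24 h replicate 3, 48 h replicate 1 or 3, 72 h replicate 1, control replicate 2 or sham replicate 3 or 5, and it was 0.64 (adjusted p = 0.128) with quantile normalization. With the 2 left-out arrays included its adjusted p was 0.0609.

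Ppp3cb had -0.02, 0.47 and 0.16 at 1 h, 0.11, -0.63 and -0.89 at 3 h and -0.52, -1.43, -0.39, -0.72 and -0.36 at 6 h, against the 24 h values above, -0.49, 0.26 and -1.68 at 48 h and -1.95, -0.11 and -2.02 at 72 h. Early and late ranges overlapped, with the 5 lowest values all late. The difference was 0.99 ± 0.28 (adjusted p = 0.0333). It was lost (0.79 to 1.01, adjusted p up to 0.0856) without 1 h replicate 2, 3 h replicate 1, 6 h replicate 3, 24 h replicate 3, 48 h replicate 1 or 3, or 72 h replicate 1 or 3, and its adjusted p was 0.0681 with the 2 left-out arrays included. All 4 calcineurin genes were higher in early lungs, with a median difference of 0.56, and Ppp3cb was the 1 called. By limma 3 of the 4 had an unadjusted p under 0.05, beside 1479 of 5993 features. Early and late means were 0.98 and 0.53 for Ppp3ca, 0.81 and 0.13 for Ppp3r2, and 0.05 and 0.05 for Ppp3r1.

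The promoters of these 4 genes are printed because they are the genes that differed between early and late lungs, and that of Ppp2ca was added because, of the 9 genes called in any comparison, it shares with Dusp1 and Ppp2r2d the 8 letters TGACGTCA, the cyclic AMP response element (CRE). The windows of the other 6 called genes, Ppp1ca, Ppp3cb, Ppm1f, Ppp6c, Ppp1r14a and Ptpro, do not hold it. Each sequence is the RefSeq window of assembly GRCr8 from 250 bases before to 50 after the annotated start, on the gene's own strand, 5′ to 3′. Of the 66 genes 57 had a window. Capitals mark the CRE, the GC box (GGGCGG) and the E-box (CACGTG), searched on both strands, so that a GC box on the other strand reads CCGCCC. The windows lie at chr10:17184603-17184902 for Dusp1, chr1:203095332-203095631 for Ppp2r2d, chr10:36858787-36859086 for Ppp2ca, chr1:210914326-210914625 for Ppp1ca and chr15:3809012-3809311 for Ppp3cb, all on the plus strand.
Dusp1: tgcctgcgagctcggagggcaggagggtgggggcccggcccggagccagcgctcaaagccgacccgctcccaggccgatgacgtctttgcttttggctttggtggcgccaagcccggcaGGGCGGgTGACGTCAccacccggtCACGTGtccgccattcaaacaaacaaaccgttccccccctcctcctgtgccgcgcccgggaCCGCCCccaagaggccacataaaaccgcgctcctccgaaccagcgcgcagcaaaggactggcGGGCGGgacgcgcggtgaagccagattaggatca
Ppp2r2d: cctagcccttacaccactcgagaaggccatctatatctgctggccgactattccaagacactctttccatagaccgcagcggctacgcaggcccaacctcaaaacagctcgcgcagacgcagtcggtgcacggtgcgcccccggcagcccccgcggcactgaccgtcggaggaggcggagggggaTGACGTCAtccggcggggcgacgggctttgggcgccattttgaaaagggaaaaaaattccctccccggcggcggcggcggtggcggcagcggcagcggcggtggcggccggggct
Ppp2ca: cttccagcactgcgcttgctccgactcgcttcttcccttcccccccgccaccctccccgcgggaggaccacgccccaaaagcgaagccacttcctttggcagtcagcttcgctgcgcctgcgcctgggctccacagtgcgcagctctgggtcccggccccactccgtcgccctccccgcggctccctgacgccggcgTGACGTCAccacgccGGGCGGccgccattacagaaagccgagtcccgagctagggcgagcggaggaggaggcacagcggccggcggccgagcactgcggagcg
Ppp1ca: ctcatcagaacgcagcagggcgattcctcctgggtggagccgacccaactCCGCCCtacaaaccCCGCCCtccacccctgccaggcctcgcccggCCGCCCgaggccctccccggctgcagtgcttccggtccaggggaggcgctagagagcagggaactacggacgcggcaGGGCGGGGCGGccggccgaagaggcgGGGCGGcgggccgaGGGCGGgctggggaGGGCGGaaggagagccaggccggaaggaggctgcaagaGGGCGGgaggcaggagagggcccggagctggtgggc
Ppp3cb: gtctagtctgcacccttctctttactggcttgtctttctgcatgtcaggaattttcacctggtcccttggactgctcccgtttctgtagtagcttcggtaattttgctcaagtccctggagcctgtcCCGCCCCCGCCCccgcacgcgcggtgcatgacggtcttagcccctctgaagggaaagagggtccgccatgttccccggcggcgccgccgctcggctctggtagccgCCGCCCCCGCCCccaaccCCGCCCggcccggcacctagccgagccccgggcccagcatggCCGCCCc

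The CRE began 124 bases before the start in Dusp1, 65 before it in Ppp2r2d and 53 before it in Ppp2ca. In Dusp1 a GC box ended just before it and an E-box followed at 107 bases before the start. Ppp1ca and Ppp3cb held no CRE in this window and had 9 and 6 GC boxes, some of them end to end. The CRE was present in 1.83% of 33469 rat windows. Of the 59 windows of the 57 genes here it was in 5, those of Dusp1, Ppp2r2d, Ppp2ca, Ppp1r15a and Ptprs. The GC box was present in 33.1% of all windows and in 37 of the 59. CCAAT was in 37.5% of all windows and 18 of the 59, and TATAAA in 14.2% and 3. The AP-1 letters TGANTCA were in 7.33% and 2, and CACGTG in 6.42% and 3. The share of G and C bases had a median of 51.7% over all windows, and was 66.7% to 75% in the printed windows. The shares of motifs were not adjusted for base composition. At the positions printed no 2 different motifs share letters, and 2 GC boxes of Ppp1ca share 1 letter.

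The 5 genes with a CRE did not move alike. In early lungs against late ones Dusp1 was higher by 0.80 and Ppp2r2d differed by -0.69, whereas Ppp2ca differed by -0.19, Ppp1r15a by -0.35 and Ptprs by -0.19 without a call (adjusted p 0.348 to 0.577). At 1 h against sham the 5 differences were 1.20 for Dusp1, 0.45 for Ppp2ca, -0.02 for Ptprs, -0.06 for Ppp1r15a and -0.82 for Ppp2r2d, none of them called. The letters are a description of these windows and say nothing of which factor was bound there.

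Between sham and control lungs no phosphatase gene was called. There limma called 0 of 65 genes, beside 0% of all features, and 4 of 65 and 282 of 5993 had an unadjusted p under 0.05. The smallest p belonged to Ptprn (0.54 ± 0.20, adjusted p = 0.953), Ppp1r9a (0.71 ± 0.29) and Ppp1cc (0.77 ± 0.34), the last with an array of 1.02 in sham replicate 1, while the other 4 sham arrays lay at -0.35 to 0.01.

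The kinases that the MAP kinase phosphatases oppose, and other phosphatases and their partners, were followed for context. Of 23 listed MAP kinases and activators 14 were measured, and 3 of the 14 differed between early and late lungs, beside the 7.04% of all features. Map2k2 (MEK2) and Map3k8 (COT) were higher early by 0.55 ± 0.13 (adjusted p = 0.0138) and 0.77 ± 0.21 (0.0261), and Map2k1 (MEK1) differed by -0.61 ± 0.18 (0.0456). Map2k1 was also lower at 3 h than in sham lungs, with a change of -1.10 ± 0.30 (adjusted p = 0.0433). Mapk14, the p38 alpha kinase that Dusp1 inactivates, differed by 0.42 ± 0.18 between early and late lungs (adjusted p = 0.142).

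Of 27 listed phosphatases and partners outside the naming rule 14 were measured. Akap5, which anchors calcineurin and protein kinase A, was lower than in sham lungs at 3 h (-1.11 ± 0.23, adjusted p = 0.0135) and at 72 h (-0.98 ± 0.23, 0.0165), and in the mean of the 7 times (-0.61 ± 0.16, 0.0335). Inpp5d (SHIP-1), the inositol phosphatase of blood cells, differed by -0.49 ± 0.15 between early and late lungs (adjusted p = 0.0407). The calcineurin partners Rcan1, Cabin1 and Nfatc4 were called in none of the comparisons, in which limma tested them among the 5993 features.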

How the data were processed

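Per the labels, lung RNA (TRI Reagent) and a reference pool stated as 10 rat organs, of which 9 are named, were hybridised on 2-colour arrays. The values deposited by the authors are log2 ratios; the dyes, the scanner and how the ratios were normalized: not given in the sources used here. On the linear scale they are multiples of 0.01. The number of arrays limits the precision.

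Each array's median (-0.38 to 0.06 on the arrays used) was subtracted and spots were averaged per gene symbol from the platform annotation, or by accession, or as neighbouring pairs, giving 6223 features. All 66 symbols are current in RefSeq. limma 3.58.1 (R 4.3.3, statmod 1.5.0; lmFit and eBayes, two-sided) was fitted once to 30 arrays in 9 groups on 5993 features with values on at least 2 arrays of every group, with Benjamini-Hochberg adjustment over all features in each of 11 comparisons and calls at 0.05. The calculation was tested on simulated data. The genes, lists and rules were chosen with earlier results of these data known.

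Named genes were those called in a comparison, the 3 with the smallest p in each, the highest, lowest and smallest F test p of each family, and a short list of well-known members; the genes of the 2 context lists were named after their values were seen where called, and Rcan1, Cabin1, Nfatc4 and Mapk14 by their known partners. Ptpn7, Ppp1r14d, Ptprq, Ptprj, Ptprn2 and a few others are given for their levels beside their relatives. Alternatives were all 32 arrays, no centring, quantile normalization, other filters and averages, a replicate block, array weights, trended and robust spread, and leaving out each array. Deviations of same-numbered arrays in different groups had a median correlation of -0.00 (-0.42 to 0.35, 94 pairs), beside 0.01 for other numbers (302 pairs). No general pairing by number was seen. The titles share only the number, and a batch shared by some of the arrays was not tested.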

Additional observations from a re-analysis of the deposited data

Results flagged for a closer look

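Among the 41 genes named by rule, 82 groups of 4 to 10 arrays were examined for a lone array, and 7 were found; chance gives about 1 in 20. In sham lungs Ppp1cc stood at 1.02 on replicate 1 (the others -0.35 to 0.01), Ppp3r1 at -1.11 on replicate 1 (the others 0.03 to 0.23) and Ptpn11 at -0.81 on replicate 5 (the others 0.03 to 0.35). At 6 h Ppp1r3b stood at -1.37 on replicate 2 (the others -0.75 to -0.56), Ppp2r2c at 0.0406 on replicate 1 (the others 0.76 to 1.00), Ptpn18 at -0.11 on replicate 4 (the others 0.42 to 0.60) and Ptpra at 0.93 on replicate 3 (the others 0.28 to 0.40).

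The change after hemorrhage differed between early and late lungs, by the test of that difference in limma, for Ppp1ca (0.83), Ppp2r2d (-0.69), Ppp3cb (0.99) and Dusp1 (0.80).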

How the results depend on the processing

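The alternatives were run on 34 results of single genes, those called or among the 3 smallest p of a comparison, and none of those with a direction turned it. Counting each result once per fit, leaving out 1 array kept the side of the threshold 935 times, lost a call 72 times and gained one 7 times. Over the other alternatives these counts were 335, 21 and 18. Ptpro at 72 h could be tested in 28 of the 30 fits that left out 1 array. Without single arrays the number of genes called ran from 0 to 5 at 3 h, 0 to 5 at 24 h, 0 to 4 at 72 h, 0 to 3 in the mean of the 7 times, 0 to 3 in the F test and 2 to 7 between early and late lungs, and stayed at 0 at 1, 6, 16 and 48 h and in sham against control lungs. The 24 h count was 0 without 24 h replicate 3, sham replicate 1 or sham replicate 5, and the 72 h count 0 without 72 h replicate 2 or 3 or sham replicate 3 or 5. With all 32 arrays 1 gene was called at 72 h, 1 in the mean of the 7 times, 0 in the F test and 1 between early and late lungs. Without centring 1 was called at 3 h, 6 at 24 h and 4 in the F test; with quantile normalization 5 at 72 h. With array weights, which ran from 0.28 to 5.61 and whose estimate did not fully converge, 5 were called at 1 h, 5 at 3 h, 3 at 6 h, 2 at 24 h (Ppp2ca and Ppp1r17, without Ppm1f and Ppp3cb), 6 at 48 h, 7 at 72 h, 10 in the mean of the 7 times, 26 in the F test and 9 between early and late lungs; the cause was not tested. With the replicate number as a block, 0 genes were called at 24 h, 0 at 72 h, 0 in the F test and 2 (Ppp1ca and Ppp2r2d) between early and late lungs. Of the 30 arrays 7 matched their own number best in another group, and the titles do not say what the numbers mean. The small number of arrays in each group limits all of these values, and no intensities were used.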
